A study of Homo sapiens with 3 samples.

Results

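The chaperonin TRiC, also called CCT, was followed through its 8 subunit genes, TCP1, CCT2, CCT3, CCT4, CCT5, CCT6A, CCT7 and CCT8, in bladder cancer cells after WDR5 knockdown. The set was chosen by a measured value, the lower CCT7 intensity after both WDR5 siRNAs, so the CCT7 values and all ratios to the control array are given as a description without a test. A probe set, the group of short probes that gives 1 value on the array, was taken for a gene when that gene was the only one the platform annotation names for it. This gave 25 probe sets for the 8 genes, of 45064 probe sets for 18155 genes on the array. UM-UC-3, an established human bladder cancer cell line, received either of the WDR5 siRNAs, named si-WDR5-2 and si-WDR5-3, or a control siRNA, each at 75 nM for 48 h. WDR5 is a WD repeat protein of the complexes that methylate histone H3 at lysine 4, a mark of active promoters. Each condition was measured on 1 Affymetrix PrimeView array, so no difference between conditions can be set against a spread between cultures, and no p-value is given.

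TRiC is a barrel of stacked rings in the cytosol that encloses newly made proteins and folds them with ATP. Each ring holds 8 different but related subunits, 1 copy of each, and actin, tubulin and many proteins with WD repeats depend on it. Around the ring the subunits stand in the order CCT2, CCT4, TCP1, CCT3, CCT6A, CCT8, CCT7 and CCT5, the last of which meets CCT2 again. In biochemical work, best known from yeast, TCP1, CCT2, CCT4 and CCT5 form the side that binds ATP tightly, and CCT3, CCT6, CCT7 and CCT8 the side that binds it weakly.

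The siRNAs are what set the conditions apart, and are shown for that reason. Each is given as the strand in the sample labels, and the capitals mark bases 12 to 18, which pair with the seed of the opposite strand, the bases that lead it to its targets.
control siRNA: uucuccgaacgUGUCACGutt
si-WDR5-2: gcucagaggauAACCUUGutt
si-WDR5-3: cccaguccaacCUUAUUGutt
The coding sequence positions that the labels give as targets in WDR5 are 999 for si-WDR5-2 and 585 for si-WDR5-3. The median over the WDR5 probe sets was 0.215 times the control after si-WDR5-2 and 0.317 times after si-WDR5-3. The labels give lower WDR5 levels relative to the control, 0.06 and 0.14. Matches of these siRNAs to the transcripts of the subunits were not analysed here.

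The values are linear intensities, and their medians lay between 149.9 and 151.2 on the 3 arrays. Probe sets dimmer than 152, the middle of all probe sets by mean log2 intensity, were set aside. For each of the 11501 genes that remained, the middle ratio among its probe sets was taken as the gene value. The ends of the range over its probe sets are given as its error, which shows disagreement between probes rather than between cultures. As a check of the cell type, markers were read by their brightest probe set. Of 20 listed urothelial and epithelial marker genes, 18 had a probe set of their own and 7 lay below 152 on every array, among them GATA3, EPCAM and CDH1, and the uroplakins, which define urothelium, lay between 125 and 235. The keratin gene KRT18 was the brightest of this list at 1968 in the control, and KRT5, KRT7, KRT8, KRT13 and KRT14 lay between 166 and 276. Of 6 mesenchymal markers 4 passed 152, with VIM at 10126 and FN1 at 169 in the control, and TWIST1 and SNAI2 did not. FN1 was at 2.05 and 1.59 times the control after the WDR5 siRNAs. Of 10 measured marker genes of other cell types, 5 were below 152 on every array, among them PTPRC of leukocytes and DCN of fibroblasts. Above 152 in the control were HBB at 455, PECAM1 at 274, VWF at 211, CD3E at 176, and CD68. The macrophage marker CD68 was at 409 in the control, 807 after si-WDR5-2 and 354 after si-WDR5-3, and its part in the TRiC values was not tested. The si-WDR5-2 array stood apart in 2 ways: interferon-induced genes had a median log2 ratio of 1.80 over 13 genes, against -0.59 after si-WDR5-3, and proliferation genes had a median of -0.75 over 17 genes, against -0.19.

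By gene value CCT7 had the lowest ratios of the 8 genes with both siRNAs. Its intensity was 2647 with control siRNA, 1338 after si-WDR5-2 and 1291 after si-WDR5-3. These are 0.506 and 0.488 times the control, and both knockdown arrays lay below the control at nearly the same level, with a ratio of 1.04 between them. Among 11501 genes CCT7 held place 81 from the lowest after si-WDR5-2 and place 33 after si-WDR5-3. With si-WDR5-2 the brighter TCP1 probe set, at 0.503 times the control, lay just below CCT7. CCT7 rests on 1 probe set, 11737913_s_at, so its ratios have no other set of probes beside them. Its suffix, s, is used by Affymetrix for probes that can match more than 1 transcript. In RNA of a whole culture, fewer cells with a transcript and less RNA per cell cannot be told apart, which holds for every value here.

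**Figure D1:**
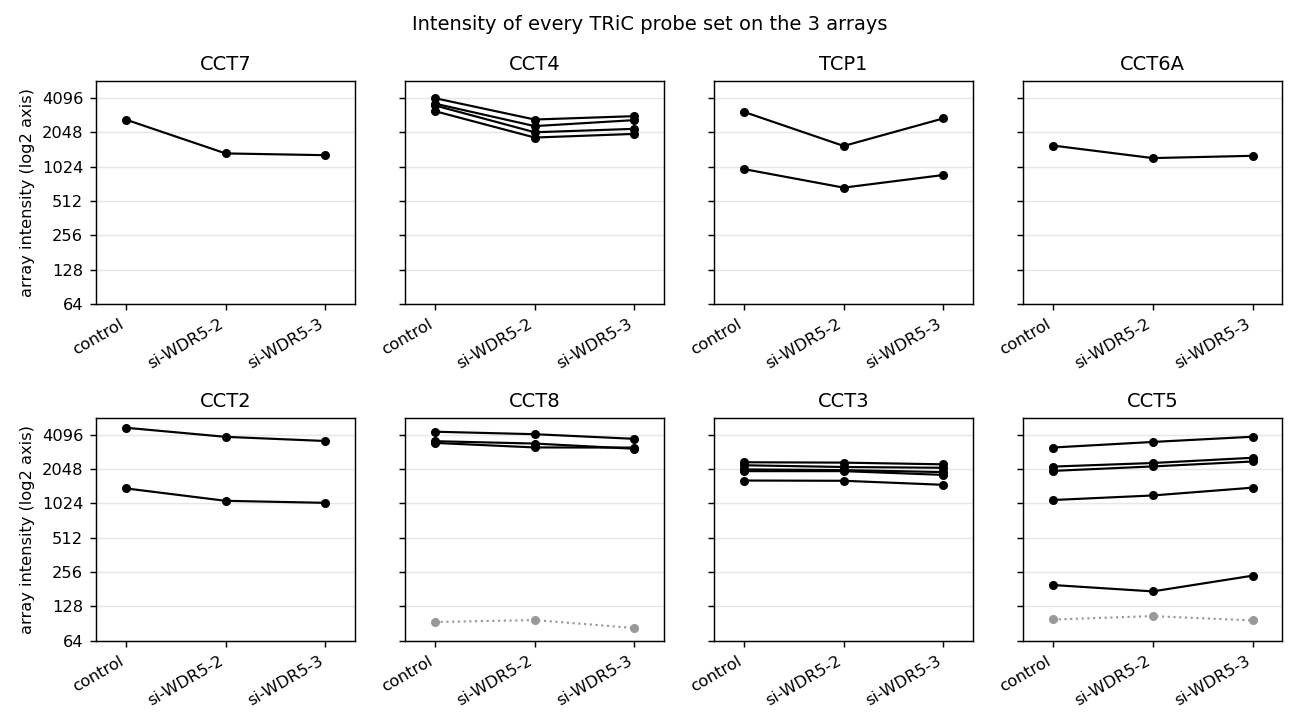
Intensity of each of the 25 probe sets of the 8 TRiC genes on the 3 arrays (x axis, 1 array per condition; y axis, linear intensity drawn on a log2 axis). Black lines are the 23 probe sets past the filter and grey dotted lines the 2 below it. The single CCT7 line goes from 2647 to 1338 and 1291, and the 4 CCT4 lines lie lower on both knockdown arrays.

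Of the subunits on the side that binds ATP tightly, CCT4 was the one below 0.67 times the control with both siRNAs. Its 4 probe sets had intensities of 4081, 3656, 3525 and 3141 with control siRNA. They were at 2652, 2322, 2051 and 1844 after si-WDR5-2, in the same order. With si-WDR5-3 they were at 2838, 2621, 2197 and 1984. All 4 were below their control level on both knockdown arrays. The gene value was 0.611 times the control after si-WDR5-2 (0.582 to 0.650 over the probe sets) and 0.663 times after si-WDR5-3 (0.623 to 0.717). With si-WDR5-3 the probe sets lay on both sides of 0.67, with 2 of 4 at or below it. In the brightest of them, at 0.695 times, CCT4 did not meet that limit, and this probe set carries the suffix s, as that of CCT7 does. The 2 probe sets that carry x, a suffix for probes that resemble other sequences, had the lower ratios with each siRNA.

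TCP1, the subunit that gave the complex its name, was low after si-WDR5-2 and closer to the control after si-WDR5-3. Its brighter probe set was at 3095 with control, 1555 after si-WDR5-2 and 2715 after si-WDR5-3. The dimmer one was at 975, 671 and 866. The gene value was 0.588 times the control after si-WDR5-2 (0.503 to 0.688) and 0.882 times after si-WDR5-3 (0.877 to 0.888), so the probe sets differed by more after si-WDR5-2 than after si-WDR5-3. Between the knockdown arrays the ratio of si-WDR5-2 to si-WDR5-3 was 0.666 (0.573 to 0.775). It was the one subunit of 8 at or below 0.67 in this comparison, which leaves out the control array. Of all genes 3.15% were at or below 0.67 there and 3.53% at or above 1.5, a level that no subunit reached. The value is next to the limit, and with median centring of the arrays it no longer met it.

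CCT2, which also acts outside the ring as a receptor for the autophagy of protein aggregates, had intensities of 4711, 3921 and 3605 in its brighter probe set and of 1385, 1078 and 1035 in the other, each for the control first and then the WDR5 siRNAs in order of number. These gave 0.805 times the control after si-WDR5-2 (0.778 to 0.832) and 0.756 times after si-WDR5-3 (0.747 to 0.765). CCT5, in which an inherited mutation causes a sensory neuropathy in humans, lay above the control. Its brightest probe set was at 3161, 3537 and 3930, and its gene value was 1.09 times the control after si-WDR5-2 and 1.21 times after si-WDR5-3. All 5 of its probe sets past the filter were above the control after si-WDR5-3 (1.19 to 1.28). With si-WDR5-2 the dimmest of them, at 197 in the control, was at 0.880 times, and the other 4 were between 1.08 and 1.12.

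On the side that binds ATP weakly, CCT6A, the widely expressed form of a subunit whose relative CCT6B belongs to the testis, had 1 probe set at 1568, 1218 and 1275. Its ratios were 0.776 and 0.813. CCT8 was at 0.951 times the control after si-WDR5-2 (0.913 to 0.953 over 3 probe sets) and 0.866 times after si-WDR5-3 (0.858 to 0.910). A probe set named for CCT8 and its pseudogene CCT8P1 together, which is not counted, was at 0.851 and 0.845 times. CCT3 lay nearest to the control: its 5 probe sets were between 0.966 and 1.00 times after si-WDR5-2 and between 0.917 and 0.959 times after si-WDR5-3, with gene values of 0.993 and 0.947. In the ring CCT7 stands between CCT8 and CCT5, so the genes with the lowest and the highest ratios to the control encode neighbours. CCT7 was chosen for its low values, and a link between ratio and place in the ring was not tested.

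**Figure D2:**
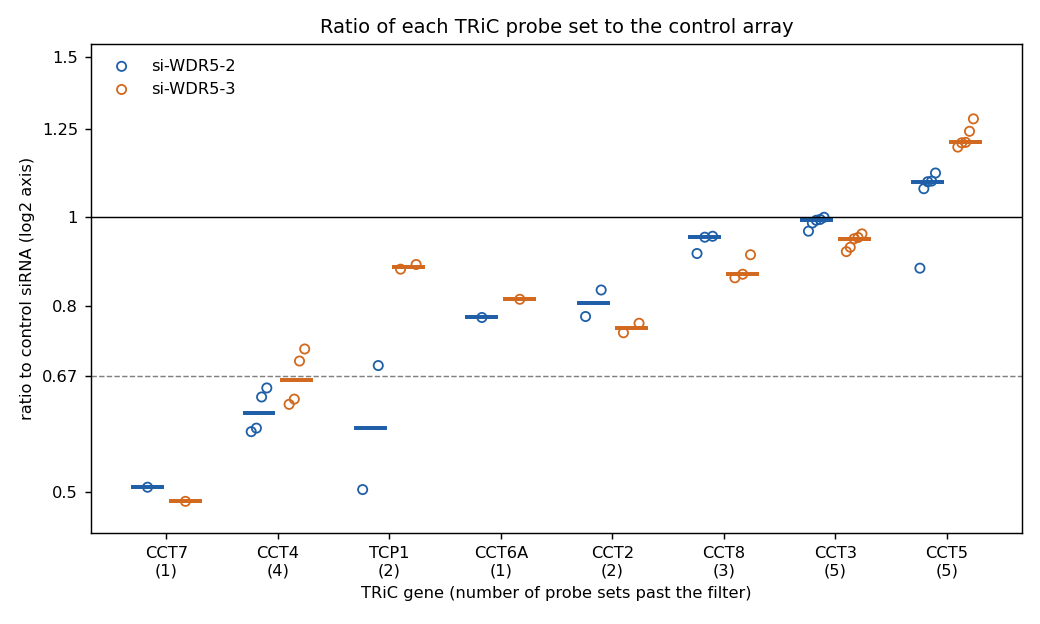
Ratio of each TRiC probe set past the filter to the control array (open circles; y axis on a log2 scale) for si-WDR5-2 in blue and si-WDR5-3 in orange, with bars at the gene value, the median over probe sets. The solid line is the control level and the dashed line 0.67. CCT7 and CCT4 have both bars below the dashed line, TCP1 only the si-WDR5-2 bar, and both CCT5 bars are above 1.

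Set in order, the ratios after si-WDR5-2 ran from CCT7 through TCP1, CCT4, CCT6A, CCT2, CCT8 and CCT3 to CCT5. The range of TCP1 held the CCT4 range and reached down to the CCT7 value, and the CCT5 range held that of CCT3, so these neighbours did not differ beyond the spread of their probes. CCT7 and CCT6A, with 1 probe set each, have no range of their own. With si-WDR5-3 the order was CCT7, CCT4, CCT2, CCT6A, CCT8, TCP1, CCT3 and CCT5, and CCT8 and TCP1 were the one pair of neighbours whose ranges overlapped. The highest gene value was 2.16 times the lowest after si-WDR5-2 and 2.48 times after si-WDR5-3. The SD of the log2 ratio over the 8 genes was 0.40 and 0.38, and 0.34 and 0.27 without CCT7. Over the 13 measured genes of the proteasome core, another complex of stacked rings, it was 0.095 and 0.22, and the latter was 0.11 without PSMA3, which was at 0.954 and 0.596 times. Over all genes it was 0.35 and 0.26. The difference in spread between these groups was not tested.

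Over the 8 subunits the median log2 ratio was -0.34 after si-WDR5-2 and -0.25 after si-WDR5-3, against -0.02 and 0.00 over all genes (-0.31 and -0.21 without CCT7). Both comparisons share the control array. At or below 0.67 times the control were 3 of 8 genes after si-WDR5-2 (TCP1, CCT4 and CCT7), where 3.44% of all genes were. With si-WDR5-3 there were 2 of 8 (CCT4 and CCT7), against 1.67% of all genes. Both limits together held for the same 2 genes, against 0.374% of all genes, and CCT7 is counted among them by the choice of the set. At the level of probe sets, 3 of 23 met this limit with both siRNAs, against 0.458% of all probe sets past the filter; they were the CCT7 one and 2 of CCT4. Below the control with both siRNAs, at any ratio under 1, were 7 of 8 genes, all but CCT5, against 35.1% of all genes. CCT3 is the nearest to 1 among them, and with median centring it was above the control after si-WDR5-2, which left 6 of 8. No subunit was at 1.5 times the control or more, a level reached by 5% of all genes after si-WDR5-2, by 2.34% after si-WDR5-3 and by 1.19% with both.

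**Figure D3:**
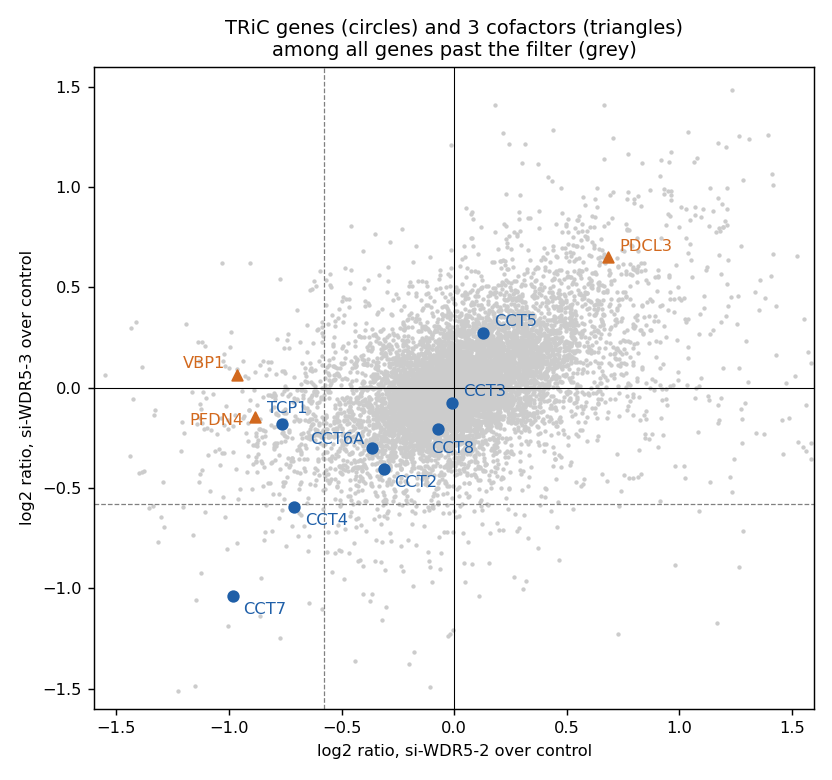
Log2 ratio to the control array after si-WDR5-2 (x axis) and after si-WDR5-3 (y axis); grey points are all genes past the filter, of which 62 of 11501 lie outside the axes, blue circles are the TRiC genes and orange triangles 3 genes of TRiC cofactors. Dashed lines mark a ratio of 0.67; both axes share the control array. CCT7 and CCT4 lie below and left of both dashed lines, while TCP1, VBP1 and PFDN4 lie left of the vertical one only.

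The genes of proteins that work with TRiC had medians nearer to the control. Prefoldin, a jellyfish-shaped complex of 6 subunits, hands unfolded actin and tubulin to TRiC, and its genes had medians of -0.12 and -0.10 on the log2 scale. With si-WDR5-2, 2 of 6 were at or below 0.67, and after si-WDR5-3 none was, where the shares of all genes were 3.44% and 1.67%. PFDN2 was the highest of them after si-WDR5-2, at 1.30 times, and was at 0.939 times after si-WDR5-3. VBP1, its subunit 3, had probe sets at 1804 and 714 with control, 967 and 350.0 after si-WDR5-2 and 1918 and 734 after si-WDR5-3. That is 0.512 and 1.05 times the control, so that VBP1 was low on the si-WDR5-2 array alone. PFDN4 was at 1955, 1058 and 1765, or 0.541 and 0.903 times, in its 1 probe set past the filter, and a dimmer one below the filter was at 0.784 and 0.958 times. TCP1, VBP1 and PFDN4 were low on the array on which all 17 proliferation genes were below the control, with ratios from 0.475 to 0.855. On the si-WDR5-3 array 12 of the 17 were below it. Of all 11501 genes, 6257 were below the control after si-WDR5-2 and 5784 after si-WDR5-3. The part of proliferation, or of the interferon-induced genes, in the TCP1, VBP1 and PFDN4 values was not tested.

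PDCL3, a phosducin-like protein that binds TRiC and modulates folding, was higher after both siRNAs. Its probe sets were at 397 and 237 with control, 747 and 326 after si-WDR5-2 and 733 and 317 after si-WDR5-3, so both knockdown arrays were above the control in both. The gene value was 1.61 and 1.57 times the control, and the brighter probe set (1.88 and 1.85) differed from the dimmer one (1.38 and 1.34). Both carry the suffix x, for probes that resemble other sequences. PDCL, which assists the folding of G protein beta subunits on TRiC, was at 0.970 and 0.938 times, and TXNDC9, a thioredoxin-domain relative, at 1.01 and 0.836 times. The 2 PDCL probe sets disagreed after si-WDR5-2, at 0.796 and 1.18 times. The tubulin cofactors TBCA to TBCE and ARL2, which join tubulin after TRiC releases it, lay between 0.819 and 1.35 times and none of the 6 was past either limit. Of all genes, 3.44% were at or below 0.67 and 5% at or above 1.5 after si-WDR5-2. After si-WDR5-3 these shares were 1.67% and 2.34%.

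Chaperonin relatives had medians of 0.16 and 0.13 on the log2 scale over the 4 of 7 that passed the filter. The mitochondrial chaperonin genes HSPD1 and HSPE1, which encode the relative of TRiC and its lid, were at 1.21 and 1.28 and at 1.03 and 0.837 times. BBS10 and MKKS, chaperonin-like proteins of the primary cilium, were at 1.59 and 1.15 and at 0.993 and 1.04 times. CCT6B lay below the filter at 128, 127 and 129. Of all genes, 3.44% and 1.67% were at or below 0.67 after si-WDR5-2 and si-WDR5-3, and 5% and 2.34% were at or above 1.5. Of 22 measured cytosolic heat shock chaperones and co-chaperones none was past either limit, and their medians were 0.03 and 0.03. The lowest after si-WDR5-2 was HSPA14 at 0.749 (0.593 to 0.933 over 4 probe sets) and 0.911 times and the highest ST13 at 1.28 and 1.29 times. HSPA8, the constitutive HSP70 that can pass proteins on to TRiC, was at 0.971 and 0.946 times and HSF1, the heat shock regulator, at 0.995 and 1.00 times.

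The transcripts of proteins that TRiC folds went both ways. Actin and tubulin genes had medians of -0.06 and 0.05 over 13 genes. The alpha-tubulin gene TUBA1A was highest at 2.09 and 2.18 times the control, and ACTB, the cytoplasmic beta-actin, was at 1.41 and 1.35 times. All probe sets of TUBA1A and ACTB carry the suffix x, for probes that resemble other sequences. ACTG1, the gamma-actin, was at 0.696 and 1.05 times and the beta-tubulin TUBB4B at 0.711 and 0.819 times. Among 10 WD repeat clients, CDC20, an activator of the anaphase-promoting complex, was at 0.579 and 0.817 times, and BUB3 of the spindle checkpoint at 0.536 and 0.706 times. PPP2R2A, a regulatory subunit of protein phosphatase, was highest after si-WDR5-2 at 1.28 and 0.902 times. The rest were between 0.733 and 1.16 times with either siRNA. At or below 0.67 were 2 of the 10 after si-WDR5-2 and none after si-WDR5-3, where 3.44% and 1.67% of all genes were. CCNE1, cyclin E1, was the one client of 6 in the remaining list at or below 0.67 with both siRNAs, against 0.374% of all genes. PLK1 of the same list was at 0.602 and 0.760 times, so 2 of 6 met the limit after si-WDR5-2, against 3.44% of all genes. The part of proliferation in the CDC20, BUB3, PLK1 and CCNE1 values was not tested. CCNE1 was at 0.458 and 0.528 times. It rests on 1 probe set, with the suffix s, at 567, 260 and 299, and a dimmer one below the filter was at 0.826 and 0.881 times. HDAC1 of that list was at 1.48 times (1.36 to 1.62 over 2 probe sets) and 1.76 times (1.62 to 1.92). A dimmer HDAC1 probe set below the filter was at 0.947 and 0.9985 times.

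**Figure D4:**
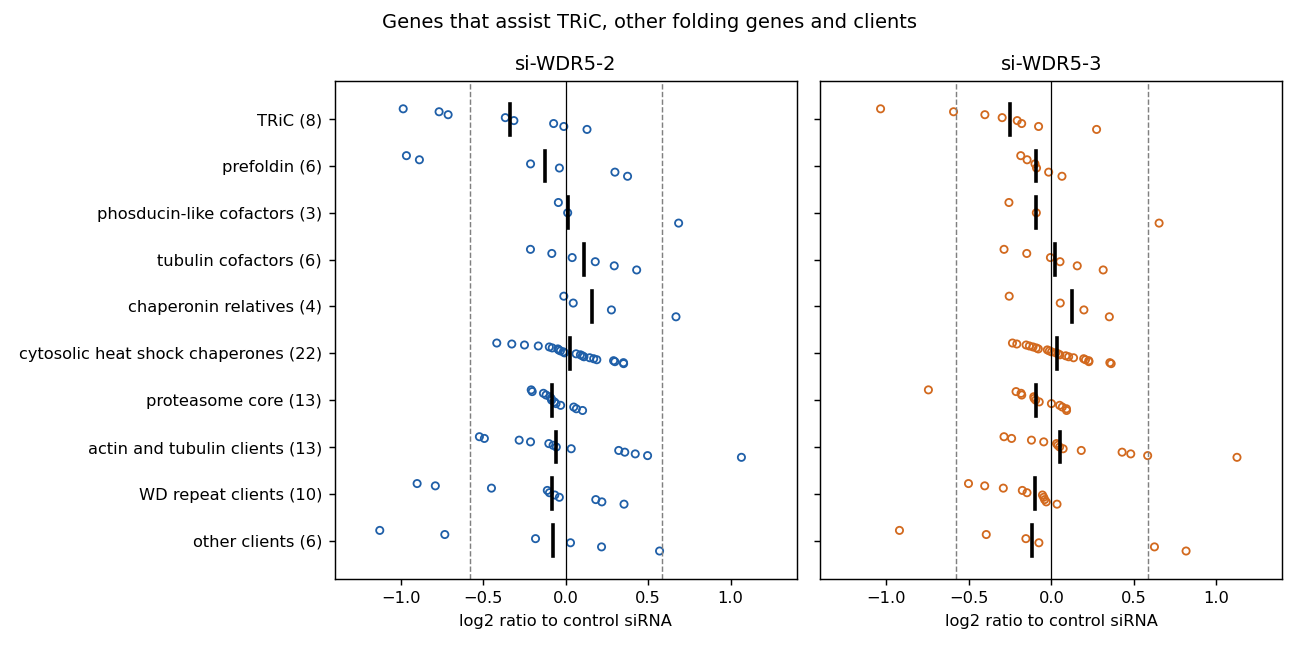
Log2 ratio to the control array of each measured gene (open circles) of TRiC, its cofactors, other folding genes, the proteasome core and TRiC clients, after si-WDR5-2 at left and si-WDR5-3 at right; numbers in brackets count genes. Black bars are list medians and dashed lines mark ratios of 0.67 and 1.5. The TRiC bar lies at -0.34 and -0.25, left of the other bars in both panels.

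The genes nearest to CCT7 were sought by the distance between their log2 ratios with both siRNAs, over the 11501 genes and 3 arrays. They were RRM2, a subunit of ribonucleotide reductase, at a distance of 0.15, the kinase gene UHMK1 at 0.16, LMAN1, a cargo receptor of the early secretory pathway, at 0.16, the ribosomal protein gene RPL35A at 0.16 and CCNE1 at 0.18. Their order is not settled by these probes. The probe sets of RRM2 ran from 0.392 to 0.684 times the control after si-WDR5-3, those of RPL35A from 0.351 to 0.658 and those of LMAN1 from 0.368 to 0.850. With si-WDR5-2 the ranges were 0.511 to 0.594 for RRM2, 0.337 to 0.605 for RPL35A and 0.491 to 1.06 for LMAN1. The nearness of LMAN1 to CCT7 is thus not settled either, and UHMK1 and CCNE1 rest on 1 probe set each.

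The promoters of CCT7 and CCT4, the genes below 0.67 with both siRNAs, are shown with that of CCT3, the subunit nearest to the control. Each is the 250 bases before the annotated start, from RefSeq on GRCh38.p14, at chr2:73234058-73234307 on the plus strand for CCT7, chr2:61888657-61888906 on the minus strand for CCT4 and chr1:156338293-156338542 on the minus strand for CCT3. Capitals mark the motifs searched on both strands: the CCAAT box (CCAAT), the ETS core (CGGAAG), the GC box (GGGCGG), the E-box (CACGTG), a heat shock element (GAANNTTC) and the half-site of the cAMP response element (TGACG).
CCT7: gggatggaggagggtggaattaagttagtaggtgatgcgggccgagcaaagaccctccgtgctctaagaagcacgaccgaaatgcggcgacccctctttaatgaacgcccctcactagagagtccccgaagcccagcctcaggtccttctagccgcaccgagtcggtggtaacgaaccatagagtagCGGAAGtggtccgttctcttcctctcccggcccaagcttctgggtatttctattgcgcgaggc
CCT4: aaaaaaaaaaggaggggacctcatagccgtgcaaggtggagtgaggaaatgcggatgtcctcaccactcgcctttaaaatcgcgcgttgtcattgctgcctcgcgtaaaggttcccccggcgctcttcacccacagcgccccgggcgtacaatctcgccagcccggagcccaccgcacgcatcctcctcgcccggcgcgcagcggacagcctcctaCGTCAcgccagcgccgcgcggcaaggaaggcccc
CCT3: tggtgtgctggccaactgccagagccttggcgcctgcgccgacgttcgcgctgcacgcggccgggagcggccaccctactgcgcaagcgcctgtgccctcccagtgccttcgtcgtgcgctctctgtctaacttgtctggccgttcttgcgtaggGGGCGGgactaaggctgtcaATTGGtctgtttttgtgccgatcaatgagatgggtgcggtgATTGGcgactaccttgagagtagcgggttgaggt
The CCT7 window holds 1 ETS core, found in 16.5% of the 35116 windows of this length in the table. The CCT4 window holds 1 cAMP half-site, found in 21.2%. The CCT3 window holds 2 CCAAT boxes and 1 GC box, which 32% and 42.6% of windows hold at least once. The windows of TCP1, of the upstream start of CCT2 and of CCT8 each hold the CCAAT box, the GC box and the cAMP half-site. The ETS core was also found for TCP1, with 2 matches, and for the upstream start of CCT2, with 1. No E-box was found in any of these windows (6.34% of all), and the heat shock element was found for TCP1 and for a downstream start of CCT2 (5.78% of all). CCT5 was left out because its window contains the start codon of the gene. The table matched 7 of the 8 genes, all but CCT6A. A match is a run of letters and not a shown binding site.

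CCT7 and CCT4 lie on the same chromosome but are not neighbours. Of the 16 protein-coding genes that flank the 8 subunits in the RefSeq order, 13 passed the filter and none was at or below 0.67 with either siRNA, where 3.44% and 1.67% of all genes were. At or above 1.5 were 2 of the 13 after si-WDR5-2, PSPH and MAP3K7CL, and 1 after si-WDR5-3, PSPH, against 5% and 2.34% of all genes. PRADC1, next to CCT7, was at 0.711 times the control after si-WDR5-2 and 1.26 times after si-WDR5-3, and FBXO41 on its other side at 1.05 and 0.901 times. Beside CCT4, FAM161A was at 1.07 and 1.04 times and COMMD1 at 0.947 and 0.862 times. PSPH, a serine synthesis enzyme next to CCT6A, was at 1.57 and 1.54 times, and MAP3K7CL next to CCT8 at 1.52 and 1.45 times. ATPSCKMT and CMBL, on either side of CCT5, were at 1.36 and 1.39 times after si-WDR5-3, above CCT5 itself, and at 1.03 and 0.964 times after si-WDR5-2.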

How the data were processed

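RNA of UM-UC-3 cells was measured on 3 PrimeView arrays, 1 for each siRNA, with groups taken from the sample titles. The authors deposited linear intensities of 49293 probe sets, analysed with GCOS 1.4 per the labels and methods. How the background was corrected and the probes summarised and normalized is not given in the sources used here. Since the array medians lie close together, no further scaling was applied. The number of arrays limits the precision.

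Log2 was taken without an offset, and 24647 probe sets at or above the median of the mean log2 intensity (152 on the linear scale) were kept. In the platform annotation 45064 probe sets have 1 gene symbol, 1756 several and 2473 none. Each gene took the median of the log2 ratios of its probe sets that were kept. All members were named. The rule for other lists allowed names for genes past 1.5 or 0.67 times with both siRNAs, at most 4 a list, and for the lowest and highest gene, and not all of these are printed. Further genes of the lists, the chromosome neighbours and the motifs were picked after their values or sequences were seen. The members and lists were chosen with earlier results of these data known. The ratio rule was tested on simulated data whose planted folds all lay well past these limits, so values near 0.67 were not probed. Alternatives were 2 scalings, 3 filters, an offset, 2 summaries of probe sets and other limits. Python 3.11.15, pandas 2.3.3 and NumPy 2.4.6 were used.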

Additional observations from a re-analysis of the deposited data

Results flagged for a closer look

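VBP1, the third subunit of prefoldin, lay on opposite sides of the control array with the WDR5 siRNAs, at 0.512 times the control after si-WDR5-2 and 1.05 times after si-WDR5-3. With 1 array per condition this difference was not tested.

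STAT3, a transcription factor among the listed TRiC clients, was at 0.881 times the control after si-WDR5-2. Its 3 probe sets ran from 0.845 to 1.07 there, on both sides of the control. After si-WDR5-3 it was at 1.54 times (1.31 to 1.66). The difference between the siRNAs was not tested either.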

How the results depend on the processing

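All 30 alternative values of the median log2 ratio over the 8 genes stayed within the typical spread between probe sets of 1 gene. They ran from -0.36 to -0.31 after si-WDR5-2, from -0.27 to -0.21 after si-WDR5-3, and from -0.07 to 0.01 between the siRNAs. Many of the 192 alternative values for single subunits could not move, as the filters left most subunit probe sets as they were. For CCT6A and CCT7, with 1 probe set each, the summary of probe sets changes nothing. Of the 192 values, 189 stayed within the typical spread too. The exceptions came from taking the brightest probe set, which moved CCT4 after si-WDR5-2 by 0.09 and TCP1 from -0.77 to -0.99 after si-WDR5-2 and from -0.59 to -0.80 between the siRNAs, on the log2 scale. That placed TCP1 below CCT7, which stayed at -0.98, after si-WDR5-2. The sign changed for 1 value, CCT3 after si-WDR5-2 with median centring. The count of genes at or below 0.67 after si-WDR5-2 was 3, and 0 at a limit of 0.5. With si-WDR5-3 it was 2, and 1 with an offset of 84.8 before log2, with the brightest probe set of each gene, at a limit of 0.5 and without CCT7. With both siRNAs it was 2, and 1 with the offset, with the brightest probe set and without CCT7, and 0 at a limit of 0.5. CCT4 after si-WDR5-3 lies close to 0.67, which these alternatives cross. TCP1 was the 1 gene at or below 0.67 for si-WDR5-2 over si-WDR5-3, and the count was 0 with median centring, with the offset and at a limit of 0.5. No TRiC probe set was at or below 0.5 with both siRNAs, and 1 was after quantile normalization. The counts without CCT7, the alternatives for the count below the control, and the medians with the probe set of CCT8 and CCT8P1 added, were chosen after the data were seen. No paired analysis was possible because each condition has 1 array. The 2 subunit probe sets below the filter were at 93.5 (CCT8) and 98.3 (CCT5) in the control, where 46.8 was the lowest value on that array.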
